A study of Mus musculus with 4 samples.

Results

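The transcripts of 6 tetraspanins, TSPAN3, TSPAN5, TSPAN6, TSPAN13, TSPAN14 and TSPAN15, were followed in SW620 cells exposed to F5446. They were picked by gene symbol for their change in this same comparison, and each is represented by its probe set with the highest mean over the 4 arrays. They are 6 of 14884 genes that could be named on the arrays, and 6 of 32 measured members of the tetraspanin family. SW620 is an established human colon carcinoma line, although the sample records name mouse as the organism. The treated group held 2 arrays of cells given 50 nM F5446 for 2 days, and the control group, Ctrl, held 2 arrays of untreated cells. F5446 is a small molecule described as an inhibitor of SUV39H1, a histone H3 methyltransferase, and the series asks how that enzyme bears on apoptosis and the cell cycle. The series describes the replicates as biological but does not state that they were separate cultures, so p-values measure only the spread between these arrays, and results from a single line do not extend to other cells.

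Tetraspanins are small proteins that cross the membrane several times and carry a large extracellular loop, through which they bind other membrane proteins and gather them into microdomains. Members of the TspanC8 subgroup, named for the cysteines of that loop, bind the metalloprotease ADAM10, escort it out of the endoplasmic reticulum and steer it towards particular substrates. ADAM10 sheds the extracellular parts of many surface proteins, and its cut of Notch receptors precedes the cut by gamma-secretase that frees the Notch intracellular domain. Notch signalling maintains progenitor cells of the intestinal epithelium. TSPAN5, TSPAN14 and TSPAN15 belong to this subgroup, along with TSPAN10, TSPAN17 and TSPAN33.

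The arrays carried transcripts of an epithelial line. EPCAM, KRT8, KRT18 and KRT19, which encode an epithelial adhesion protein and keratins of simple epithelia, had log2 signals between 6.88 and 10.7 on the F5446 arrays and between 7.61 and 11.8 on the Ctrl arrays. Of these, KRT18 fell 2.16-fold, EPCAM 1.69-fold and KRT8 1.47-fold. Of the other markers of the list, CDX2 fell 1.63-fold and CDX1 did not pass (log2 fold change -0.21), and the rest were dim or changed strongly. KRT20 had 3.45 and 3.70 on the F5446 arrays, against 3.08 and 3.60 on the Ctrl arrays. LGR5 fell 23.9-fold, VIL1 14.7-fold and ASCL2 5.39-fold, while CEACAM5 rose 3.80-fold and KRT19 1.40-fold. Of 13 colon epithelial markers 11 were measured, of which 7 fell and 2 rose (63.6% and 18.2%, beside 22.7% and 18.2% of all genes), and their mean log2 signal was 6.96 and 6.90 on the F5446 arrays, against 7.99 and 7.97 on the Ctrl arrays. Of 5 leukocyte markers measured out of 10, LYZ fell and 4 did not pass, with a mean of 4.31 and 4.24 on the F5446 arrays, against 4.59 and 4.57 on the Ctrl arrays. Of 4 stromal and endothelial markers measured out of 9, LUM fell and 3 did not pass, with a mean of 3.50 and 3.58 on the F5446 arrays, against 4.16 and 4.15 on the Ctrl arrays. LUM itself had 4.20 and 3.83 on the F5446 arrays, against 7.04 and 7.03 on the Ctrl arrays. LYZ had 4.84 and 5.01, against 6.77 and 6.66. The part of all these markers in the results below was not tested. SUV39H1 itself had 7.47 and 7.36 in F5446 cells, against 9.12 and 9.17 in Ctrl cells. All signals are log2 values of 1 probe set, and no probe set's level was set against another's. The table holds no detection calls, so 4.42, the median of all probe sets and arrays, serves as a mark of dim signal. Array signal from a whole culture cannot tell fewer expressing cells from less RNA per cell.

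All 6 tetraspanins had less mRNA after F5446, by 2.07-fold to 3.81-fold, and for each of them both F5446 arrays lay below both Ctrl arrays. Across all genes that held for 37.7%, while the F5446 arrays lay above both Ctrl arrays at 28.4% and the groups were separated either way at 66.2%. All 6 also passed the test applied to every gene (adjusted p under 0.05), which 40.9% of genes passed, 22.7% of genes as falls. Because the genes were picked for this difference, these counts and the fold changes below describe the choice and are given without a p-value. The 6 were also the tetraspanins at least 2-fold lower, which goes with their having been picked for change and is no separate result. That size was reached by 7.32% of all genes as a passing fall. TSPAN13 lay just inside that size with a log2 fold change of -1.05, and TSPAN12 just outside it with -0.85. TSPAN13 fell short of it with centred arrays (-0.92), as did TSPAN3 with the mean of its probe sets (-0.65).

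**Figure D1:**
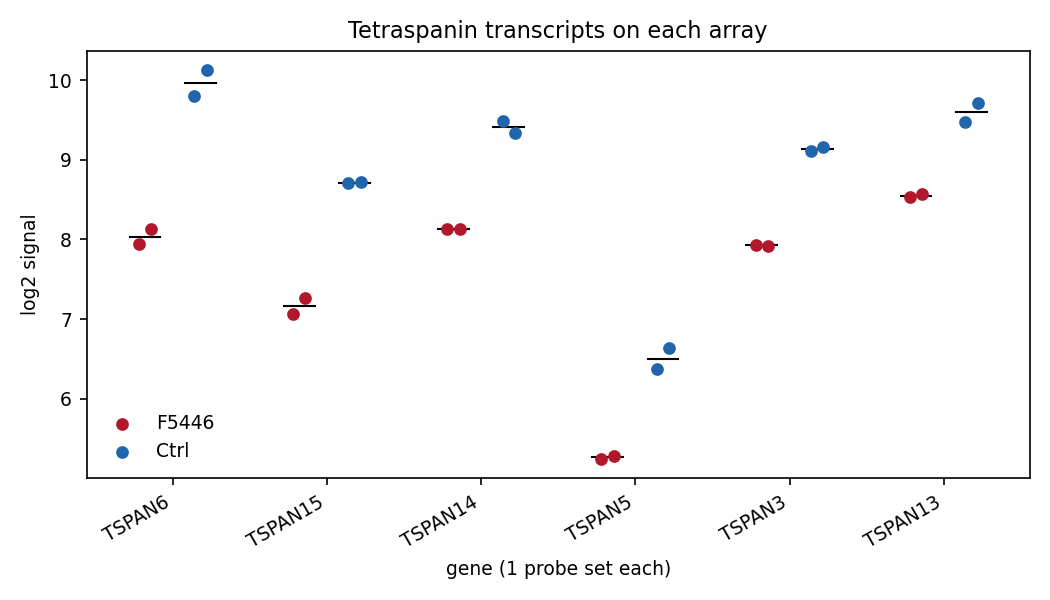
The log2 signal (vertical axis) of each of the 6 tetraspanins on each array, with F5446 arrays in red to the left of Ctrl arrays in blue and a black line at the mean of each group of 2. The 2 groups are separated for every gene, with the widest gap for TSPAN6 (1.68 between the nearest arrays) and the narrowest for TSPAN13 (0.92).

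Among the 3 ADAM10 partners, TSPAN15 differed most. TSPAN15, whose protein directs ADAM10 to N-cadherin, had a log2 signal of 7.07 and 7.26 on the F5446 arrays, against 8.71 and 8.72 on the Ctrl arrays. The F5446 arrays were further apart than the Ctrl arrays, but the groups were separated by 1.44. Its log2 fold change was -1.55 ± 0.09 (SE), with a 95% interval of -1.75 to -1.34, which left 34.2% of the Ctrl signal.

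TSPAN14, a partner known to promote ADAM10 maturation and Notch signalling, had 8.14 and 8.13 after F5446, against 9.49 and 9.33 in Ctrl cells. The treated arrays were almost identical, and the groups were 1.20 apart at their nearest. The log2 fold change was -1.28 ± 0.08 (SE), a 2.43-fold lower signal.

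TSPAN5, a partner that also supports ADAM10-dependent Notch activation, had 5.25 and 5.28 after F5446, against 6.37 and 6.64 in Ctrl cells. This was the probe set with the widest error of the 6, with a log2 fold change of -1.24 ± 0.14 (SE) and a 95% interval of -1.55 to -0.93. All 4 arrays were above the mark of dim signal.

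The largest difference belonged to TSPAN6, which is outside the ADAM10-binding subgroup and is known to dampen antiviral signalling by RIG-I-like receptors and to act in extracellular vesicle release. Its log2 signal was 7.94 and 8.13 in F5446 cells, against 9.81 and 10.1 in Ctrl cells. The control arrays differed by 0.32, the largest gap between replicates in the set, while the groups were 1.68 apart at their nearest. The log2 fold change of -1.93 ± 0.11 (SE) corresponds to a 3.81-fold lower signal, and 1.91% of all genes had a lower fold change.

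TSPAN3, which has been linked to self-renewal of leukaemia cells in mice, had 7.93 and 7.92 after F5446, against 9.11 and 9.16 in Ctrl cells. It had the smallest error of the 6 (log2 fold change -1.21 ± 0.07, SE). TSPAN3 is also the one member with another probe set, a dim one, with 2.61 and 2.97 on the F5446 arrays and 3.15 and 2.60 on the Ctrl arrays. That probe set lay under the mark of dim signal throughout and its groups overlapped (log2 fold change -0.08 ± 0.25, SE). With the mean of both probe sets, TSPAN3 changed by -0.65 in place of -1.21.

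TSPAN13, a family member reported to act on a voltage-gated calcium channel, had 8.53 and 8.57 in F5446 cells, against 9.48 and 9.71 in Ctrl cells. The groups did not overlap, and the log2 fold change was -1.05 ± 0.09 (SE), the smallest of the set. The intervals of the 6 fold changes come from the values by which the genes were picked. They describe these arrays and do not rank the genes. The interval of TSPAN6, -2.18 to -1.68, overlapped that of TSPAN15 but lay wholly below those of TSPAN14, TSPAN5, TSPAN3 and TSPAN13. The intervals of the last 4 overlapped one another.

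Genes whose 4 values followed a member most closely were found by the Euclidean distance between the log2 values on the 4 arrays, each gene set to its own mean. For TSPAN5 these were NDUFAF8 at a distance of 0.029 and FASTKD3 at 0.033. For TSPAN14 they were GPRIN1 at 0.030 and SRGAP2 at 0.033, and for TSPAN15 they were PEPD at 0.047 and ZNF367 at 0.063. MND1 and ANKS4B lay nearest to TSPAN6, at 0.067 and 0.098. NUDT12 and SNRPB lay nearest to TSPAN3, at 0.026 and 0.039, and PODXL2 and MRPL16 nearest to TSPAN13, at 0.041 and 0.046. With 4 arrays in 2 groups the measure mostly matches genes of equal fold change. The members were not each other's nearest neighbours: the closest pair, TSPAN3 and TSPAN14, was 0.16 apart, with 176 genes nearer to TSPAN3 and 103 nearer to TSPAN14.

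The rest of the tetraspanin family ran from a log2 fold change of -0.85 for TSPAN12 to 1.05 for UPK1A. Of the 26 other members measured, 6 fell, 2 rose and 18 did not pass, a share of 23.1% falling and 7.69% rising beside 22.7% and 18.2% of all genes. With each array centred on its median, the balance over all genes turned to 18.4% falling and 23.0% rising, and 5 of the 26 fell and 2 rose. As deposited, the median log2 fold change of the 26 was -0.13, beside -0.05 over all genes. Of the 26, 7 were under the mark of dim signal on every array, and 15 were above it on every array, of which 4 fell and 2 rose. Among the 10263 genes with a mean at or above that mark, tested alone, 31.9% fell and 26.2% rose. In that fit 6 of the other tetraspanins fell, CD81, CD82, TSPAN9, TSPAN12, TSPAN32 and TSPAN33, and 2 rose. The 4 falls and 2 rises among the 15 come from the fit to all genes, so they are not set against these shares.

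Within the ADAM10-binding subgroup, TSPAN33, known from B cells and red cell precursors, fell 1.70-fold (log2 fold change -0.76 ± 0.17, SE, adjusted p = 0.0059). It had 5.40 and 5.28 after F5446, against 5.87 and 6.34 in Ctrl cells, so the gap between its control arrays was close to that between the groups. The call was lost without Ctrl replicate 2 (adjusted p = 0.0501) and without F5446 replicate 2 (adjusted p = 0.078). For TSPAN10, known from the eye and pigment cells, the log2 fold change was -0.42 ± 0.17 (SE), which did not pass (adjusted p = 0.083). Its F5446 values, 4.25 and 4.20, were under the mark of dim signal, and its Ctrl values, 4.49 and 4.80, above it. TSPAN17, the closest relative of TSPAN5, had 7.33 and 7.19 in F5446 cells and 7.31 and 7.17 in Ctrl cells. Those arrays overlapped, and the log2 fold change of 0.02 ± 0.10 (SE, adjusted p = 0.92) turned to -0.02 after quantile normalization. The mRNAs of the 6 ADAM10-binding tetraspanins thus spanned log2 fold changes of -1.55 to 0.02.

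**Figure D2:**
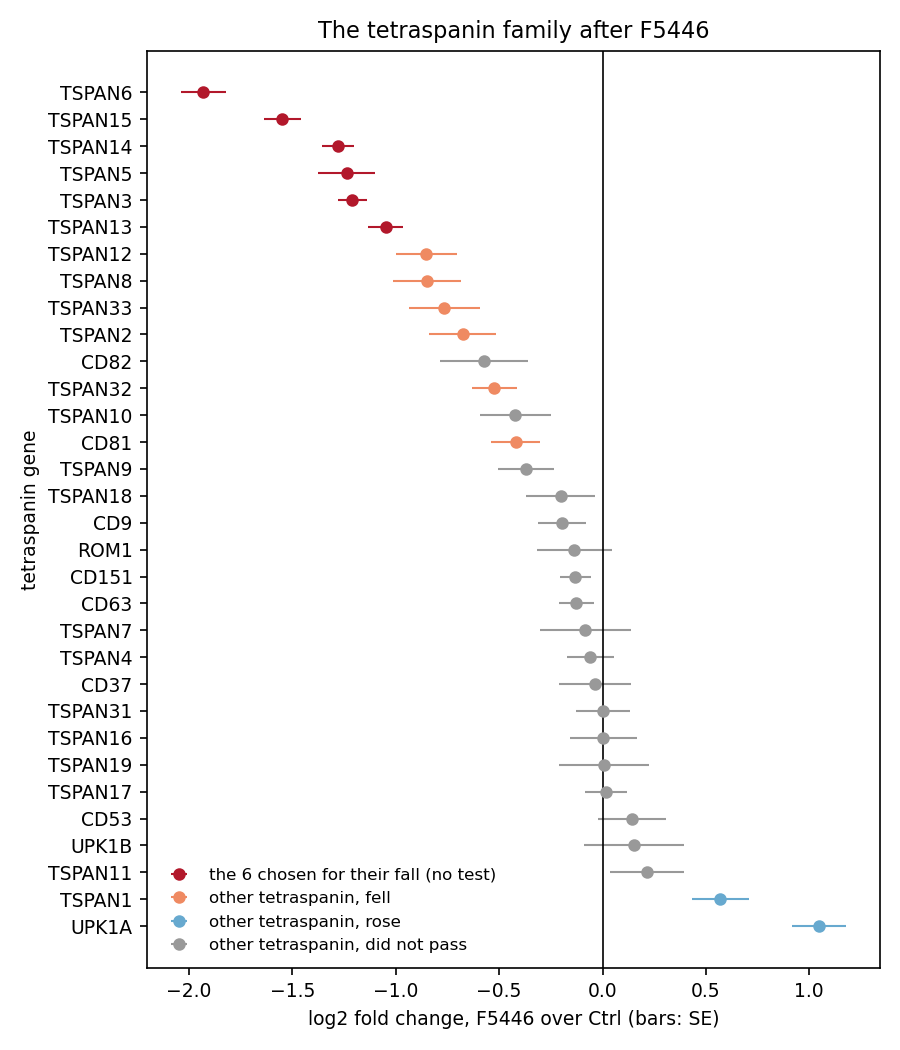
Log2 fold change of F5446 over Ctrl (horizontal axis) for the 32 measured tetraspanins, with bars for the SE of the fit. Points in dark red are the 6 genes chosen for their difference, and the other 26 are coloured by whether they fell, rose or did not pass; the range runs from -1.93 for TSPAN6 to 1.05 for UPK1A.

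TSPAN12, which strengthens the response of the receptor Frizzled-4 to norrin, fell 1.81-fold. It had 5.03 and 4.87 after F5446, against 5.70 and 5.90 in Ctrl cells (adjusted p = 0.0013). TSPAN8, a tetraspanin of gastrointestinal carcinomas, fell by 0.85 on the log2 scale (adjusted p = 0.0026), to 3.62 and 3.83 after F5446, against 4.59 and 4.55 in Ctrl cells. The F5446 values of TSPAN8 were below the mark of dim signal and the Ctrl values just above it. TSPAN2, known from myelinating cells, fell 1.60-fold but was dim on every array (adjusted p = 0.0084). TSPAN32, first described in blood cells, fell 1.44-fold (adjusted p = 0.0038), and CD81, a component of the B cell coreceptor, fell 1.34-fold (adjusted p = 0.020).

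Without F5446 replicate 2, the falls among the 26 numbered 2, TSPAN12 and TSPAN8, and the calls of TSPAN2, TSPAN32, TSPAN33 and CD81 were lost. CD81 was also not called without Ctrl replicate 1 (adjusted p = 0.11), without Ctrl replicate 2 (0.053), with each array centred on its median (0.088) or with all probe sets tested (0.069).

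Of the family, 2 members rose. UPK1A, which encodes a uroplakin of the urothelial surface, had a mean log2 signal of 6.02 ± 0.034 in F5446 cells, against 4.97 ± 0.029 in Ctrl cells (SD, n = 2 each). Its groups were far apart relative to their spread, and it rose 2.07-fold (log2 fold change 1.05 ± 0.13, SE, adjusted p = 0.00017). TSPAN1, a tetraspanin often studied in epithelial cancers, rose 1.48-fold, to 5.63 and 5.61 after F5446, against 4.98 and 5.12 in Ctrl cells (adjusted p = 0.0091). The call of TSPAN1 ended when any array but the second control was left out (adjusted p of 0.056 without Ctrl replicate 1, 0.071 without F5446 replicate 1 and 0.064 without F5446 replicate 2).

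The tetraspanins used as markers of extracellular vesicles, CD9, CD63 and CD81, had small fold changes. CD63 had 7.58 and 7.60 after F5446, against 7.71 and 7.72 in Ctrl cells (log2 fold change -0.13 ± 0.08, SE, adjusted p = 0.29). CD9 had 6.28 and 6.44 after F5446, against 6.50 and 6.60 in Ctrl cells (adjusted p = 0.24). In both genes the F5446 arrays lay below the Ctrl arrays, but the difference did not pass. For CD151, which binds laminin receptors, the log2 fold change was -0.13 ± 0.08 (SE) and the adjusted p 0.22. CD82, known as a metastasis suppressor, had one of -0.57 ± 0.21 (SE, adjusted p = 0.060); its Ctrl arrays, 6.82 and 6.14, differed by 0.68. CD82 passed as a fall after quantile normalization (adjusted p = 0.034), without dim genes (0.034) and without Ctrl replicate 2 (0.011). The log2 fold change of CD82 depended on the control array kept: it was -0.91 without Ctrl replicate 2 and -0.23 without Ctrl replicate 1 (adjusted p = 0.40). The log2 fold change of TSPAN9 was -0.37 ± 0.13 (SE, adjusted p = 0.057), and it passed after quantile normalization (0.028) and without dim genes (0.041). CD37 and CD53, the tetraspanins of leukocytes, had 4.43 and 4.13, and 3.23 and 3.31, on the F5446 arrays, against 4.24 and 4.39, and 3.17 and 3.09, on the Ctrl arrays. Neither passed. The remaining 9, TSPAN4, TSPAN7, TSPAN11, TSPAN16, TSPAN18, TSPAN19, TSPAN31, ROM1 and UPK1B, had log2 fold changes of -0.20 to 0.22 and adjusted p of 0.40 or more.

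ADAM10, the protease that TSPAN5, TSPAN14 and TSPAN15 bind, was also lower, while ADAM17, the other main sheddase, was higher. ADAM10 had 8.56 and 8.53 in F5446 cells, against 9.16 and 9.25 in Ctrl cells. The groups were separated by more than their spread, and ADAM10 fell 1.58-fold (log2 fold change -0.66 ± 0.07, SE, adjusted p = 5.36e-05). ADAM17, which releases TNF and ligands of the EGF receptor, had 9.42 and 9.36 after F5446, against 8.29 and 8.25 in Ctrl cells. It rose 2.17-fold (log2 fold change 1.12 ± 0.07, SE, adjusted p = 1.74e-06). RHBDF1, which encodes iRhom1, a carrier of ADAM17 to the cell surface, had 8.68 and 8.67 after F5446, against 6.26 and 5.65 in Ctrl cells, and rose 6.58-fold (adjusted p = 2.17e-06). The control arrays of RHBDF1 differed by 0.61, far less than the distance between the groups. RHBDF2, which encodes iRhom2, fell 1.21-fold (adjusted p = 0.033), a call that was lost with each array centred on its median (0.23). It was lost also without Ctrl replicate 1 (0.20), F5446 replicate 1 (0.12) or F5446 replicate 2 (0.20).

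**Figure D3:**
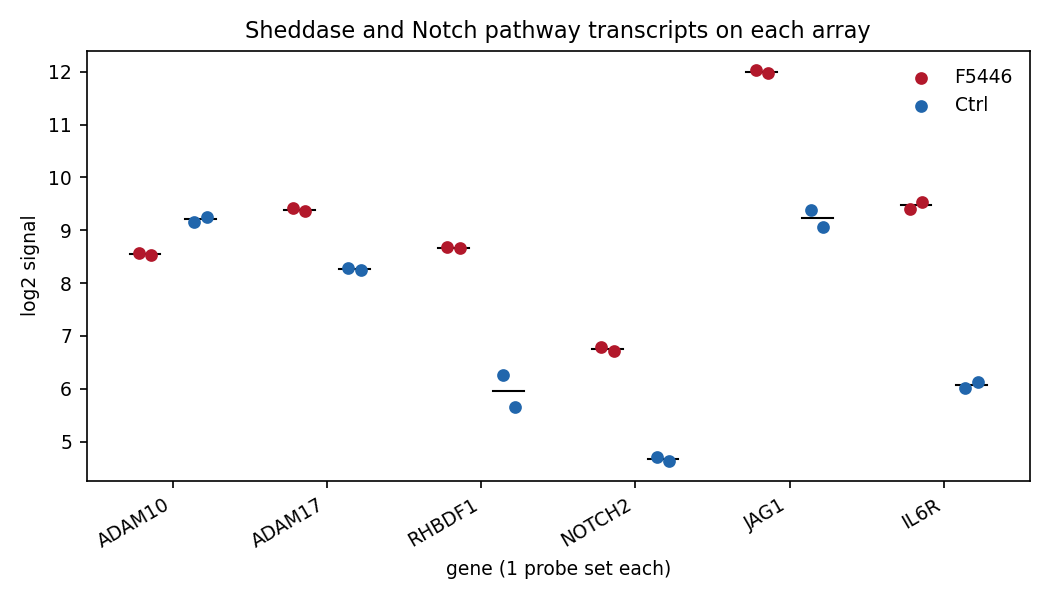
The log2 signal (vertical axis) of 6 sheddase and Notch pathway genes on each array, F5446 in red to the left of Ctrl in blue, with a black line at each group mean. ADAM10 is lower on both F5446 arrays, and ADAM17, RHBDF1, NOTCH2, JAG1 and IL6R are higher on both.

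The gene lists from here on were chosen with earlier results of these data known, so their shares are a description and test nothing. Of 16 measured sheddases and their regulators, 8 rose, 3 fell and 5 did not pass, with a median log2 fold change of 0.18. These were shares of 50.0% and 18.8%, beside 18.2% rising and 22.7% falling over all genes. Those shares, used for each list below, include 4059 genes that were dim on every array, and no gene of this list was. With dim genes left out and the rest fitted alone, 26.2% of genes rose and 31.9% fell. The shares of the lists, here and below, come from the fit to all genes. TIMP3, an inhibitor of ADAM10 and ADAM17 that is held in the matrix, rose 2.22-fold (adjusted p = 3.04e-05), while its other, dim probe set changed by -0.06. FURIN and PCSK7, proprotein convertases that activate ADAM10, rose 1.45-fold and 1.31-fold (adjusted p = 0.0032 and 0.0080); both were chosen after their values were seen. RECK, a membrane-anchored inhibitor of metalloproteases, fell 1.56-fold (adjusted p = 0.010), and its call was lost without Ctrl replicate 1 (0.074), F5446 replicate 1 (0.078) or F5446 replicate 2 (0.058).

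Genes listed as substrates or partners of ADAM10 moved in both directions. Of 39 measured out of 54, 13 rose, 11 fell and 15 did not pass, with a median of -0.08. The shares were 33.3% and 28.2%, beside 18.2% and 22.7% of all genes. With dim genes left out, the shares over all genes were 26.2% and 31.9%, while 5 of the 39 were dim on every array. IL6R, the interleukin-6 receptor, had 9.40 and 9.54 after F5446, against 6.02 and 6.12 in Ctrl cells. It rose 10.5-fold (adjusted p = 2.44e-08), the largest rise of the list. JAG1, a Notch ligand, rose 6.84-fold (adjusted p = 6.50e-08), and NRP1, a coreceptor for semaphorins and VEGF, rose 5.47-fold (adjusted p = 1.34e-07). The largest falls were those of PTK7, a pseudokinase of Wnt signalling (3.19-fold, adjusted p = 1.44e-05), and SDC1, the proteoglycan syndecan-1 (2.55-fold, adjusted p = 2.54e-06). MICB, a ligand of the NKG2D receptor, fell 1.87-fold, and its 6 other probe sets changed by -1.07 to -0.83.

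For gamma-secretase, which cuts Notch after ADAM10, 4 of 5 measured subunits fell and 1 rose, where 22.7% of all genes fell and 18.2% rose. PSENEN, which encodes the subunit PEN-2, fell 1.48-fold (adjusted p = 2.26e-05), APH1B 1.47-fold (adjusted p = 0.016) and APH1A 1.28-fold (adjusted p = 0.021). PSEN2, a catalytic subunit, had 7.40 and 7.49 after F5446, against 6.61 and 6.59 in Ctrl cells, and rose 1.80-fold (adjusted p = 8.92e-05). NCSTN, chosen after its value was seen, fell 1.26-fold (adjusted p = 0.0069). Leaving out any 1 array ended the call of APH1B (adjusted p up to 0.096). That of APH1A ended on centring the arrays (0.11), and on leaving out Ctrl replicate 1 (0.13), F5446 replicate 1 (0.15) or F5446 replicate 2 (0.074).

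**Figure D4:**
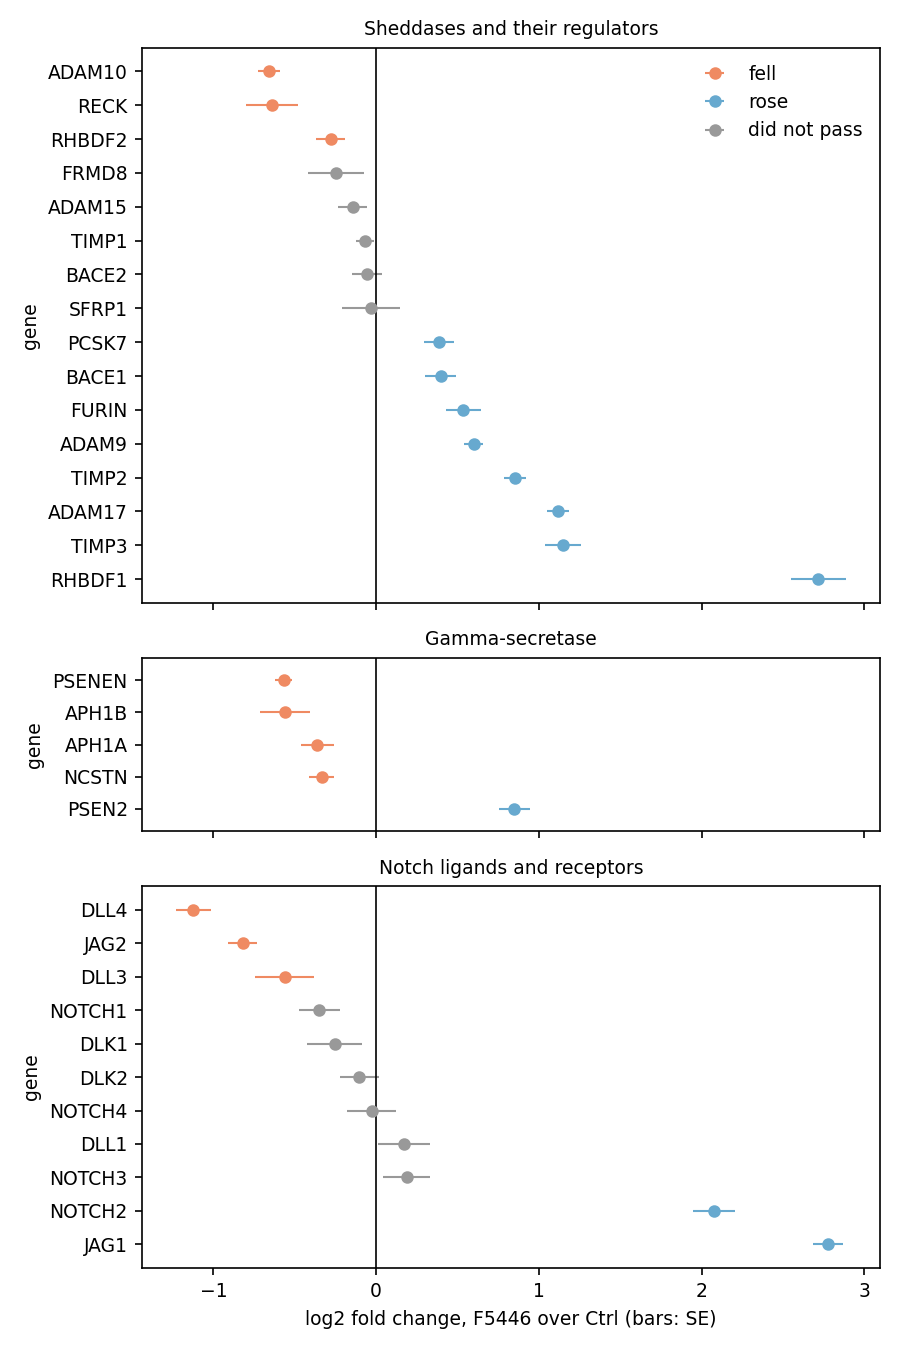
Log2 fold change of F5446 over Ctrl (horizontal axis, bars for the SE of the fit) for the sheddases and their regulators, gamma-secretase, and Notch ligands and receptors. ADAM10 lies at the low end of the first panel with -0.66 and RHBDF1 at the high end with 2.72, and JAG1 and NOTCH2 stand apart in the last panel with 2.77 and 2.08.

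The 11 Notch ligands and receptors split into 2 that rose, 3 that fell and 6 that did not pass (median -0.10). Their shares of 18.2% and 27.3% were close to the 18.2% and 22.7% of all genes. JAG1 had 12.0 and 12.0 in F5446 cells, against 9.38 and 9.07 in Ctrl cells. Among the falls, DLL4 was 2.18-fold lower (adjusted p = 2.79e-05), JAG2 1.77-fold lower (adjusted p = 6.84e-05) and DLL3 1.47-fold lower (adjusted p = 0.034). The call of DLL3 ended on centring the arrays (0.090), and on leaving out Ctrl replicate 1 (0.11), Ctrl replicate 2 (0.15) or F5446 replicate 2 (0.23).

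NOTCH2 had 6.79 and 6.71 after F5446, against 4.72 and 4.63 in Ctrl cells, and rose 4.22-fold (adjusted p = 1.90e-06). NOTCH2NLA, a partial copy of NOTCH2 with near-identical sequence, rose 4.76-fold (adjusted p = 3.27e-07), so the signals of these genes cannot be separated with certainty; it was named after its value was seen. The log2 fold change of NOTCH1 was -0.35 ± 0.13 (SE, adjusted p = 0.053), and it passed as a fall after quantile normalization (0.022), without dim genes (0.030) and without Ctrl replicate 2 (0.014). Without Ctrl replicate 2 its log2 fold change was -0.53, and without Ctrl replicate 1 it was -0.17 (adjusted p = 0.33). For NOTCH3 it was 0.19 ± 0.14 (SE, adjusted p = 0.37).

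Of 31 measured Notch targets and regulators, 5 rose, 6 fell and 20 did not pass, shares of 16.1% and 19.4% (median -0.10). That was no more than the 18.2% and 22.7% of all genes. MAML2, a coactivator of the Notch transcription complex, fell 6.56-fold (adjusted p = 1.48e-07), and its other, dim probe set changed by -0.12. HES6, a HES family member that opposes HES1, fell 4.67-fold (adjusted p = 1.87e-06), and LFNG, a glycosyltransferase that modifies Notch receptors, 3.61-fold (adjusted p = 1.19e-05). MIB1, the ubiquitin ligase that activates Notch ligands, rose 1.46-fold (adjusted p = 0.00015), ITCH, a ligase that acts on Notch, rose 1.38-fold (adjusted p = 0.00023) and the feedback gene NRARP rose 1.39-fold (adjusted p = 0.034). The call of NRARP was lost when any 1 array was left out (adjusted p up to 0.22). HES1 was not analysed here.

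Among other known partners of tetraspanins, only 15 of the 35 listed were measured. Of these 15, 7 rose and 5 fell (median 0.18), shares of 46.7% and 33.3%, beside 18.2% and 22.7% of all genes. HBEGF, a ligand of the EGF receptor whose precursor binds CD9, rose 9.41-fold (adjusted p = 2.86e-08), EGFR 5.07-fold (adjusted p = 1.64e-06) and the hyaluronan receptor CD44 2.78-fold (adjusted p = 1.78e-05). MME, a surface peptidase, fell 19.1-fold (adjusted p = 9.53e-09). PTGFRN, a direct partner of CD9 and CD81, had 6.73 and 6.89 after F5446, against 7.95 and 7.79 in Ctrl cells, and fell 2.09-fold (adjusted p = 3.44e-05). BSG, which encodes basigin, fell 1.74-fold (adjusted p = 6.75e-06). Of 26 genes of exosome formation measured out of 33, 12 rose and 7 fell (median 0.19), shares of 46.2% and 26.9%, beside the same 18.2% and 22.7%. None of the 26 was dim on every array, and with dim genes left out 26.2% of genes rose and 31.9% fell. VPS37C and VPS37A, subunits of the ESCRT-I complex, rose 2.29-fold and 1.76-fold (adjusted p = 0.00020 and 6.15e-05), and HGS, which begins ESCRT sorting, rose 2.03-fold (adjusted p = 2.17e-06). SDC1 is on this list too and fell, as did FLOT2, which encodes flotillin-2 (1.68-fold, adjusted p = 4.10e-05), and CHMP1A, an ESCRT-III subunit (1.57-fold, adjusted p = 0.00018).

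**Figure D5:**
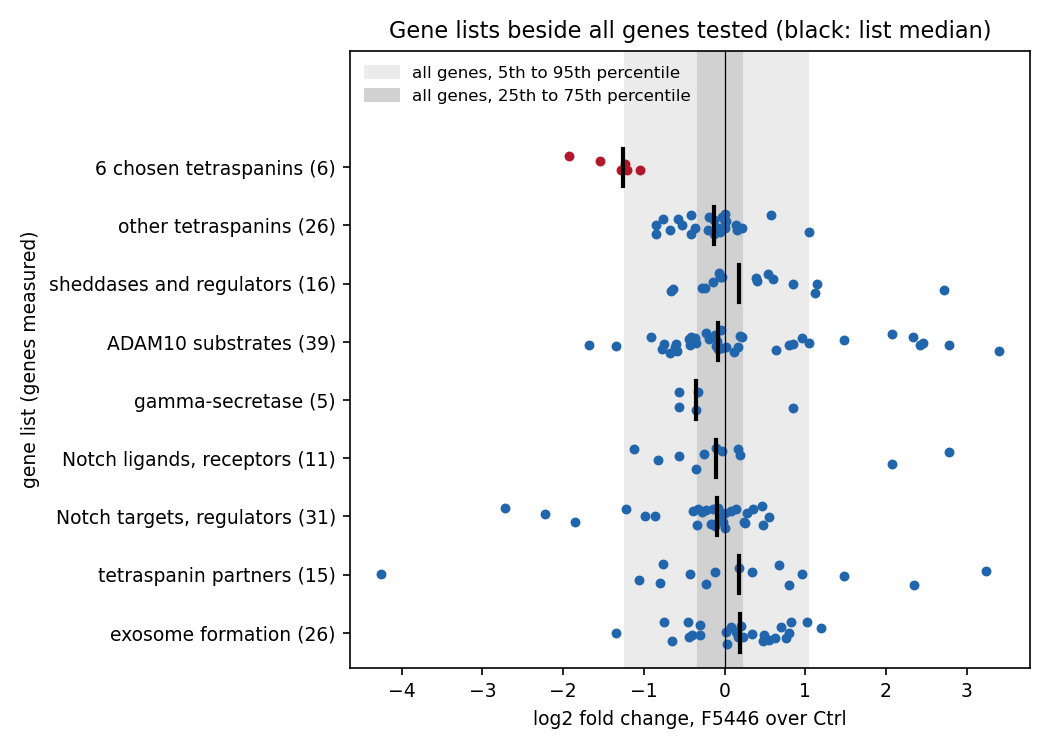
Log2 fold change of F5446 over Ctrl (horizontal axis) for each gene of the lists named on the vertical axis, with the list median as a black bar and the spread of all 14884 genes as grey bands. The 6 chosen tetraspanins lie between -1.93 and -1.05, and the other lists have medians between -0.36 and 0.19, beside -0.05 for all genes.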

How the data were processed

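Total RNA from 4 samples of SW620 cells was hybridised to single-colour oligonucleotide arrays. The deposited table has 53617 probe sets and was taken as log2 signal, inferred from its range (0.710 to 13.8). Partek is the program named, per the submitters' processing notes; steps not given in the sources used here include background correction and normalization. GEO's platform annotation names 16098 probe sets, 14884 genes, and the probe set with the highest mean stood for each gene. Differences were estimated in R 4.3.3 by limma 3.58.1 (lmFit, then eBayes with intensity trend) with a term for group alone. P-values are two-sided, Benjamini-Hochberg adjusted over the 14884 genes (threshold 0.05). The fit was also run on simulated data with far fewer changed genes, which cannot tell how many calls here are false. Precision is limited by 2 arrays per group. Members and lists were chosen with earlier results of these data known. Named are the 6 members, the measured family, ADAM10, ADAM17, NOTCH1 to NOTCH3, SUV39H1, per list up to 3 largest passing rises and falls, and per member the 2 genes of most like pattern. Alternatives were scaling, dim filter, variance model, probe sets, a replicate block and left-out arrays.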

Additional observations from a re-analysis of the deposited data

How the results depend on the processing

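For the 6 tetraspanins, picked for this change, the alternatives only describe. The dim filter, variance models, test of all probe sets and replicate block cannot alter their fold changes. Averaging probe sets can alter only TSPAN3, and leaving out 1 array cannot reverse groups that are separated. The 6 stayed lower under all 12 alternatives. Their log2 fold changes ran from -2.09 to -1.77 (TSPAN6), -1.64 to -1.42 (TSPAN15), -1.36 to -1.15 (TSPAN14), -1.37 to -1.10 (TSPAN5), -1.28 to -0.65 (TSPAN3) and -1.16 to -0.92 (TSPAN13). Among the 26 other tetraspanins, 1 to 2 rose and 2 to 6 fell when 1 array was left out. Among all genes, 2069 to 2431 rose and 2580 to 2891 fell when 1 array was left out. The median named gene shifted by -0.13 between F5446 and Ctrl, which centring removes: with centred arrays 3420 genes rose and 2735 fell, which turns the balance round. After quantile normalization 2546 rose and 3615 fell, and of the 26 other tetraspanins 2 rose and 8 fell. The samples share only replicate numbers: same-numbered arrays deviated together at r = 0.044 across genes, and with the replicate block 2722 genes rose and 3342 fell, beside 2714 and 3372 without it. With the block, CD82 and TSPAN9 passed as falls, so that 8 of the 26 other tetraspanins fell, and DLL3 and NRARP did not pass. With all probe sets tested, CD81, RHBDF2, APH1A, DLL3 and NRARP did not pass, nor did RHBDF2 and APH1A without the intensity trend. Genes near 0 that turned sign had not passed. Centred arrays gave 0.0675 for TSPAN4, 0.0441 for TSPAN7, 0.0909 for CD37 and 0.00040 for CD63. Quantile normalization gave -0.0150 for TSPAN16, -0.0193 for TSPAN17 and -0.0352 for TSPAN31. With 1 array left out, ranges crossing 0 were -0.368 to 0.204 (TSPAN7), -0.0231 to 0.453 (TSPAN11), -0.0120 to 0.0208 (TSPAN16), -0.0496 to 0.0859 (TSPAN17), -0.313 to 0.327 (TSPAN19), -0.0334 to 0.0388 (TSPAN31), -0.186 to 0.115 (CD37), -0.332 to 0.0594 (ROM1) and -0.210 to 0.518 (UPK1B). Dim signal limits TSPAN2 and 6 other tetraspanins on every array, and TSPAN8, TSPAN10, ROM1 and CD37 on some arrays. With 1 array left in a group, that array is assumed to vary like the other group.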
